A study of Mus musculus with 12 samples.

Results

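The 36 genes described here encode aminoacyl-tRNA synthetases, 20 that work in the cytosol and 16 that work in mitochondria, out of 27179 gene IDs in the count tables. They were taken from a list of symbols, written with the older names or the newer suffix 1, and all 36 were found by Entrez ID. The list was chosen by the function of the genes with their CPM in these same libraries known, that of Lars2 in particular, so the levels below are a description and carry no test. PolyA RNA was measured in NIH3T3, a mouse fibroblast line of embryonic origin that grows without limit, in which endogenous RelA, the p65 subunit of NF-κB, was deleted (RelA-/-) and replaced by a RelA-DsRed fusion, in every group. Cells spent 2 h in microfluidic devices, and 3 samples are labelled for each of 4 groups: IL-1 at 0.2 ng/mL, LPS at 100 ng/mL, PAM at 0.2 ng/mL, and media. Only the 3 IL-1 tables were distinct. Every one of the 9 tables for LPS, PAM or media repeated IL-1 replicate 3 value for value, so those conditions were not analysed here and no contrast with media could be made. The labels do not say whether the 3 IL-1 samples came from separate cultures, so the spread between them may be technical.

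Aminoacyl-tRNA synthetases join each amino acid to its tRNA, and the charged tRNA then carries the amino acid to the ribosome. The cytosol and the mitochondrion have largely separate sets of these enzymes, both encoded in the nucleus. A "2" at the end of the symbol marks a mitochondrial form with its own gene. Gars and Kars serve both compartments and are counted here as cytosolic. Several cytosolic enzymes are held together in a multi-synthetase complex. Genes for cytosolic enzymes are among the known targets of the transcription factor ATF4 when amino acids are scarce.

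The 3 libraries held 17254518, 18091073 and 18578859 counts in replicates 1, 2 and 3. Values are given as CPM, the share of a library's counts scaled to 1000000, and, to compare genes, as CPM per kilobase of a gene's merged exons (CPM per kb). Merged exons include rarely used and retained sequence, and the order of genes close in level turned with the length used, as set out after the members. All 8 fibroblast markers were detected, with summed levels of 7857 to 8213 CPM. Of 6 macrophage markers 3 were detected (Lyz2 at 9.69, Cd68 at 2.05 and Csf1r at 1.84 CPM on average), all 6 summed to 10.6 to 17.5 CPM, and Ptprc, which defines blood cells, was between 0 and 0.323 CPM. None of the 5 epithelial or 4 endothelial markers was detected.

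All 20 cytosolic and all 16 mitochondrial synthetase genes reached 1 CPM in each library, the level called detected, which 51.1% of 20983 protein-coding genes did. Cytosolic enzymes lay far higher than mitochondrial ones. Their median level was 89.0 CPM per kb, against 6.05 CPM per kb for the mitochondrial enzymes, and the median over 10704 detected protein-coding genes was 6.94 CPM per kb. All 20 cytosolic members were above that median, as were 8 of 16 mitochondrial members. A mean of 100 CPM per kb or more was reached by 9 cytosolic enzymes and by 1 mitochondrial enzyme, Lars2, and by 5.19% of detected protein-coding genes. The ratio of the cytosolic to the mitochondrial median was 14.4 ± 0.291 (SD, n = 3), and 18.7 without Lars2. Per kb of coding sequence the medians were 174 for cytosolic and 26.0 for mitochondrial genes, with a ratio of 6.57, so the size of the gap depended on the length used.

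As shares of all counts, the cytosolic enzymes took 1.06% ± 0.0276 and the mitochondrial enzymes 0.737% ± 0.0271 (SD, n = 3). Lars2 alone made up 90.7% ± 0.511 of the mitochondrial sum, and without it the other 15 mitochondrial genes took 0.0685% ± 0.00134 of all counts. In CPM, with no correction for length, the 20 cytosolic genes in every library exceeded every library of these 15. The lowest cytosolic mean was 159 CPM for Farsa and the highest of the 15 was 104 CPM for Rars2. Per kb the ranges met. Rars2, at 37.6 ± 1.66 CPM per kb, lay above Eprs, Farsa, Cars and Qars, and above 3 cytosolic genes per kb of the longest transcript.

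**Figure D1:**
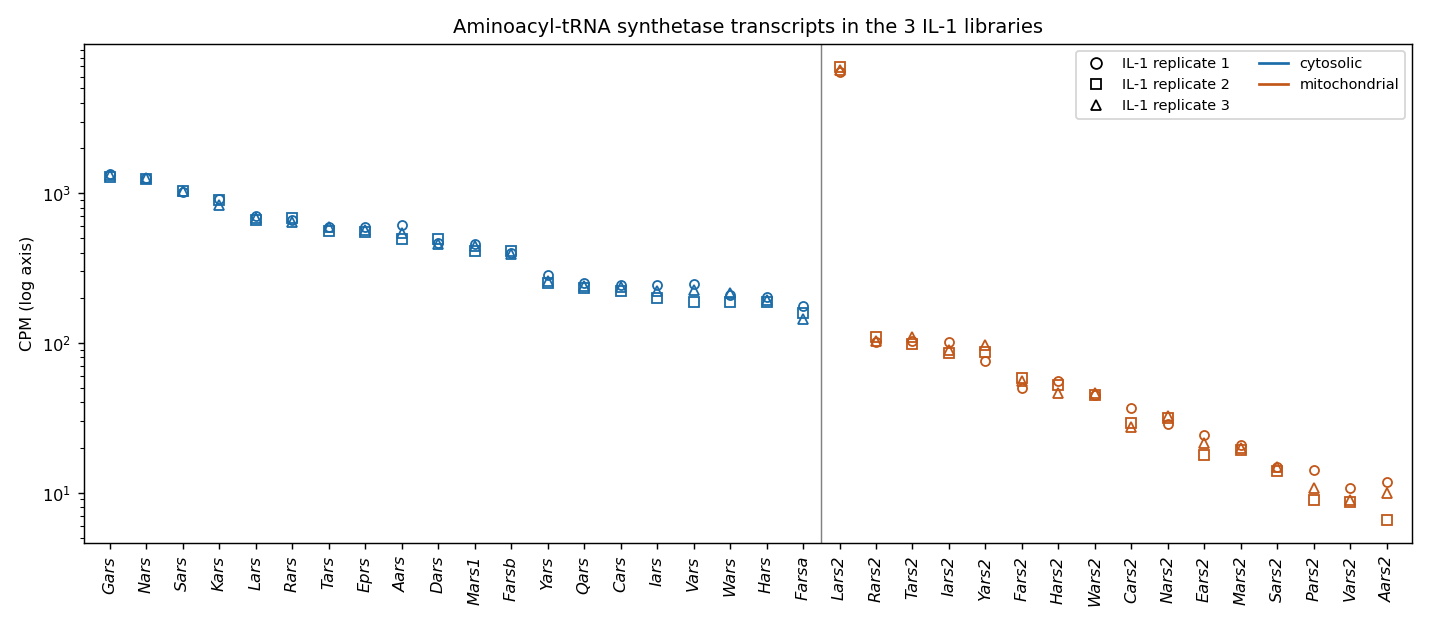
Level of each synthetase gene in CPM (log axis) in each of the 3 IL-1 libraries, with cytosolic genes to the left of mitochondrial genes. Points are libraries. Cytosolic means run from 159 to 1312 CPM, and 15 of 16 mitochondrial means lie between 9.40 and 104 CPM, with Lars2 at 6684 CPM.

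The highest cytosolic transcript per kb of merged exons and in CPM was Gars, the glycyl enzyme, whose gene also gives the mitochondrial form. Gars measured 1342, 1278 and 1315 CPM in replicates 1, 2 and 3, a mean of 421 ± 10.4 CPM per kb, and stood at percentile 99.3 of detected protein-coding genes. Nars, which charges asparagine, was next at 1268, 1239.7 and 1259 CPM, or 288 ± 3.34 CPM per kb. These values varied by 2.48% and 1.16% (coefficient of variation), and the 2 genes did not overlap in any library per kb.

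A step lower came Rars, for arginine, with 659.5, 679 and 637 CPM. Its 204 ± 6.58 CPM per kb was not separated by the spread between libraries from Sars, for serine, at 199 ± 2.37 CPM per kb. Kars, the lysyl enzyme, is also made for both compartments from its own gene and stood at 197 ± 9.97 CPM per kb. Sars was at 1009, 1032 and 1027 CPM, and Kars at 908, 904 and 829 CPM. The phenylalanyl enzyme has 2 kinds of subunit from separate genes, and their transcripts were unequal. Farsb, the beta subunit, was at 397, 409 and 391 CPM, or 152 ± 3.44 CPM per kb, and Farsa, the alpha subunit, at 177, 158 and 143 CPM, or 35.1 ± 3.68 CPM per kb. The 2 subunit genes did not overlap in any library.

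In the middle of the cytosolic range, per kb, were Mars1 (methionine) at 128 ± 6.54, Lars (leucine) at 127 ± 4.47, Dars (aspartate) at 108 ± 3.89, Tars (threonine) at 98.9 ± 3.78 and Hars (histidine) at 79.1 ± 3.55 CPM per kb. Mars1 and Lars were within each other's spread. Wars, the tryptophanyl enzyme, which interferon is known to induce in other settings, measured 208, 188 and 214 CPM. At 59.0 ± 4.04 CPM per kb, Wars was level with Aars, the alanyl enzyme, at 59.0 ± 6.14 CPM per kb. Below them were Yars (tyrosine) at 44.5 ± 3.21, Iars (isoleucine) at 42.2 ± 4.32, Vars (valine) at 39.2 ± 5.26, Qars (glutamine) at 36.7 ± 1.24 and Cars (cysteine) at 35.4 ± 1.46 CPM per kb. The range of each of these genes over the 3 libraries overlapped that of the next in order, with Farsa last, per kb of merged exons. Within each library, however, Yars lay above Iars, Iars above Vars and Qars above Cars. Vars and Qars changed order between libraries, as did Cars and Farsa. The ranges did not meet for Yars above Qars, Cars and Farsa, or for Iars above Cars.

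Eprs, a fused enzyme for glutamate and proline, was the lowest cytosolic member per kb of merged exons. It had 589, 550.0 and 566 CPM, which gave 31.4 ± 1.09 CPM per kb over 18102 bases of merged exons but 101 ± 3.50 CPM per kb over its longest transcript of 5638 bases. Eprs ranked 20 of 20 cytosolic genes by the first length and 11 by the second, so its place depended on the gene model.

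The 8 enzymes of the multi-synthetase complex (Eprs, Iars, Lars, Mars1, Qars, Rars, Kars and Dars) had a median of 118 CPM per kb and a range of 31.4 to 204 CPM per kb. Of those not yet given by library, Mars1 had 455, 412 and 445 CPM and Dars 467, 490.5 and 457 CPM. Qars had 250.2, 234 and 239.9 CPM and Lars 706, 658 and 682 CPM. Iars, with 245, 199 and 223 CPM, had the largest coefficient of variation of the 8, at 10.2%. The other 12 cytosolic genes had a median of 69.1 CPM per kb and a wider range, 35.1 to 421 CPM per kb, so the 2 sets overlapped over nearly all of the complex's range. The complex's 3 scaffold genes were all detected. Aimp2 stood at 116 ± 4.33, Eef1e1 at 37.6 ± 1.41 and Aimp1 at 28.7 ± 2.69 CPM per kb. By catalytic fold, over both compartments, 17 class II enzymes had a median of 59.0 and 19 class I enzymes one of 36.7 CPM per kb. Eprs, which holds both folds, was counted under class I. Both sets include mitochondrial genes, with Lars2 in class I, so these medians do not compare the folds within 1 compartment.

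Among mitochondrial enzymes other than Lars2, Rars2 led with 101, 109 and 102 CPM. Yars2, for tyrosine, had 75.9, 86.7 and 96.8 CPM, or 27.5 ± 3.32 CPM per kb, and Tars2, for threonine, had 103, 97.6 and 109 CPM, or 14.9 ± 0.829 CPM per kb. Rars2, Yars2 and Tars2 did not overlap per kb of merged exons. Hars2 at 12.1 ± 1.14, Iars2 at 10.4 ± 0.968, Fars2 at 9.48 ± 0.679 and Wars2 at 7.64 ± 0.143 CPM per kb made up the rest of the 8 that lay above the median of detected protein-coding genes.

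The other mitochondrial members lay below that median. Nars2 was at 4.45 ± 0.297, Sars2 at 4.38 ± 0.155, Cars2 at 4.29 ± 0.673, Ears2 at 4.12 ± 0.605 and Pars2 at 3.65 ± 0.873 CPM per kb, with overlapping spreads. The 3 lowest were Aars2 with 11.7, 6.52 and 9.96 CPM, Mars2 with 20.8, 19.2 and 19.8 CPM, and Vars2 with 10.8, 8.62 and 8.93 CPM. Per kb they stood at 1.97 ± 0.554, 1.76 ± 0.0726 and 1.73 ± 0.213 CPM per kb and were not separated from each other. Mars2 had a higher CPM than the other pair and a longer exon model of 11294 bases.

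The order within each class depended on length. Per kb of coding sequence Gars, at 600 ± 14.9, lay behind Nars at 749 ± 8.68 and Sars at 636 ± 7.58 CPM per kb. Per kb of the longest transcript Gars led, and Kars at 364 ± 18.4, Rars at 312 ± 10.1 and Sars at 286 ± 3.41 CPM per kb, which were level by merged exons, did not overlap. By that length Aars was at 95.2 ± 9.91 and Wars at 70.7 ± 4.84 CPM per kb, no longer level, and Lars at 171 ± 6.02 lay above Mars1 at 143 ± 7.31 CPM per kb. Yars2 at 30.8 ± 3.73 and Tars2 at 28.6 ± 1.59 CPM per kb then overlapped. Lars2 was first of the mitochondrial class, and Nars and Gars stayed among the first 3 of the cytosolic class, by all 3 lengths.

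The 16 mitochondrial genes formed 17 pairs with a cytosolic gene for the same amino acid, since Fars2 pairs with both Farsa and Farsb and Eprs with both Ears2 and Pars2. The cytosolic gene was higher in every library in 16 of 17 pairs, by either length, and the exception was leucine. Over the 16, the median ratio of CPM per kb, cytosolic over mitochondrial, was 8.05. By merged exons the widest gaps were methionine, with Mars1 over Mars2 at 72.4 ± 1.66, asparagine, with Nars over Nars2 at 65.0 ± 4.99, and serine, with Sars over Sars2 at 45.4 ± 2.03. Alanine followed with a ratio of 31.1 ± 6.86, valine with 22.7 ± 1.72 and Farsb over Fars2 with 16.1 ± 1.06.

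The other pairs apart from tyrosine and leucine lay between 3.73 and 8.86. Eprs over Pars2 was 8.86 ± 1.72, Cars over Cars2 8.37 ± 1.06, Wars over Wars2 7.72 ± 0.469 and Eprs over Ears2 7.72 ± 0.921. Tars over Tars2 was 6.65 ± 0.206, Hars over Hars2 6.59 ± 0.566, Rars over Rars2 5.43 ± 0.166 and Iars over Iars2 4.07 ± 0.119, with Farsa over Fars2 at 3.73 ± 0.631. Over longest transcripts the Eprs ratios were 28.0 ± 5.45 to Pars2 and 23.6 ± 2.81 to Ears2, so these pairs ranked higher by that length. By merged exons tyrosine had the narrowest gap of the 16, with Yars over Yars2 at 2.00, 1.52 and 1.41 in replicates 1, 2 and 3, where Yars was highest in replicate 1 and Yars2 lowest. For leucine the order was turned round, with Lars over Lars2 at 0.211 ± 0.0163.

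The ranks of the pairs turned with length. The methionine ratio rests on the long exon model of Mars2 and was 21.9 ± 0.504 in CPM and 14.1 ± 0.325 per kb of coding sequence, where serine led at 70.5 ± 3.15 in CPM and 68.1 ± 3.05 per coding kb, followed by alanine. By longest transcript the ratios of Farsa over Fars2 at 2.97 ± 0.502, Iars over Iars2 at 2.99 ± 0.0873 and Yars over Yars2 at 2.99 ± 0.563 could not be told apart. In CPM isoleucine was narrowest at 2.42 ± 0.0706.

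**Figure D2:**
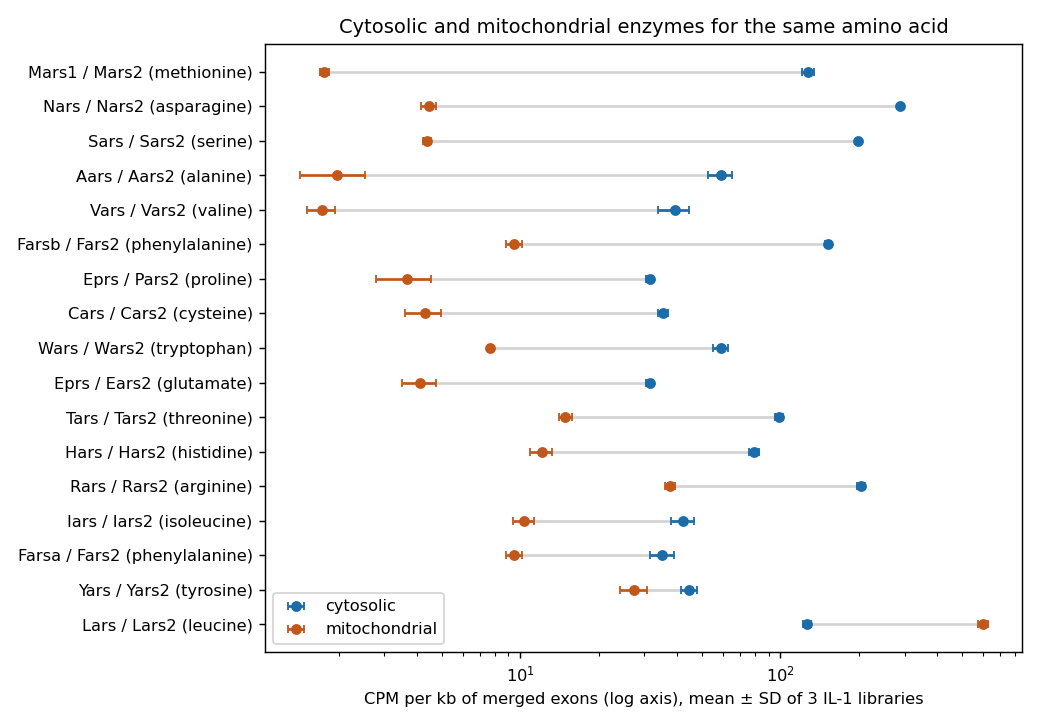
CPM per kb of merged exons (log axis, mean ± SD of 3 IL-1 libraries) of the cytosolic and the mitochondrial enzyme for each of 17 pairs, ordered by their ratio. The cytosolic point lies to the right of the mitochondrial one in 16 pairs, from a ratio of 1.64 for tyrosine to 72.4 for methionine, and to its left for leucine.

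Lars2, the mitochondrial leucyl enzyme (chromosome 9, 123366927 to 123462675, plus strand, GRCm38.p6), had 110669, 126256 and 123696 counts in replicates 1, 2 and 3. That is 6414, 6979 and 6658 CPM, or 603 ± 25.6 CPM per kb, and its row ranked 5 of all 27179. Lars, its cytosolic counterpart, had 706, 658 and 682 CPM. Lars2 stood at 64.1 ± 0.732 times the CPM of Rars2, the next mitochondrial gene, and at 114, 138 and 128 times the median CPM per kb of the other 15. The counts of Lars2 were 9.76 ± 0.601 times the sum of the other 15. No other member of either class came near its CPM, and Gars, the highest of the rest, was at 1312 ± 32.5 CPM.

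Genes around Lars2 did not share its level. Of 24 other genes within 500 kb, 12 were detected, and the highest was Sacm1l at 82.1 ± 3.78 CPM, followed by Exosc7 at 68.0 ± 2.23 CPM and Zdhhc3 at 67.1 ± 5.68 CPM. Limd1, 16.0 kb from the end of Lars2, was at 45.4 ± 5.72 CPM. The exons of Lars2 overlapped those of no other annotated gene.

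**Figure D3:**
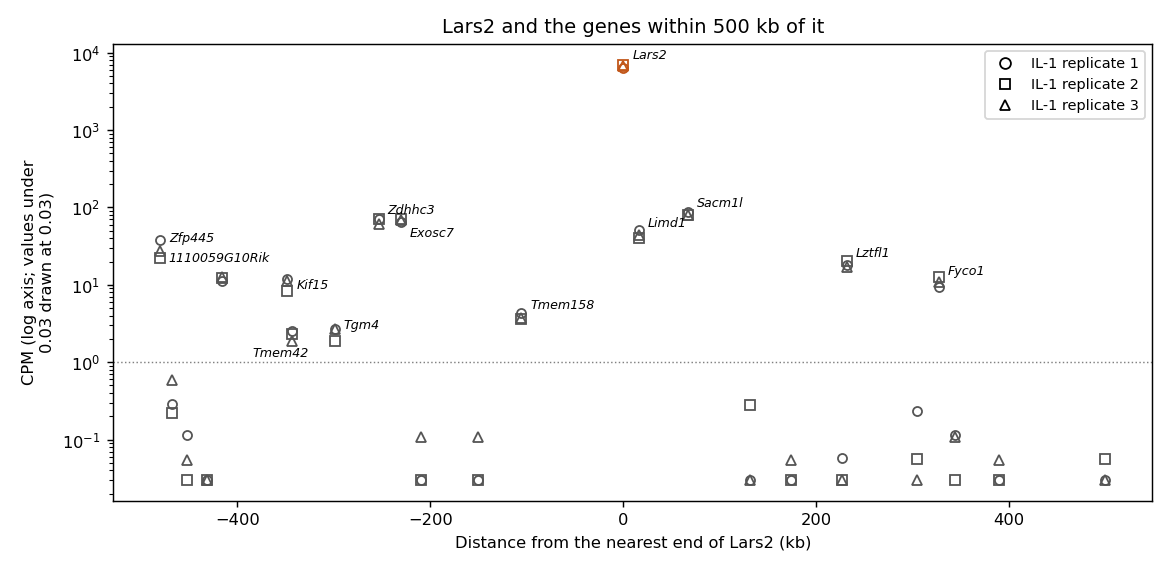
CPM (log axis) of Lars2 and the genes within 500 kb of it in each of the 3 IL-1 libraries, by distance in kb from the nearest end of Lars2; points are libraries, values near 0 are drawn at the floor given on the axis and the dotted line marks 1 CPM. Lars2, at 6414 to 6979 CPM, stands above all of its neighbours, of which the highest averages 82.1 CPM.

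Counts per gene do not show where in a gene its reads lay, so the transcript was searched for stretches that other genes share. The longest Lars2 transcript has 21 exons and 3894 bases, and its last exon (chromosome 9, 123461499 to 123462664) holds 989 bases of 3′ UTR. Inside that UTR, 72 bases (123462048 to 123462119) matched the antisense RNA gene Gm15564 at 98.6%, with 1 mismatch and 52 bases in a row identical. AA474408 matched a stretch reaching to the same end at 80.1% over 196 aligned bases. Other matches, such as those to Ifitm10 and Phka1, were of 75.6% to 88.2% over 50 to 90 bases near the end of the UTR. The first 30 bases of the Gm15564 match, shown because a read that lies within the match fits both genes, are in capitals throughout, since all are identical (chr9:123462048-123462077, plus strand, GRCm38).
Lars2: GAATTCACCAAGCGTTGGATTGTTCACCCA

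Neither Gm15564 nor AA474408 has a row in the count tables. The row with the most counts, Entrez ID 100861531, carries no symbol in the gene table used here, and it stood at 16711, 19714 and 17248 CPM. Both that row and Lars2 were highest in replicate 2 and lowest in replicate 1, as were 6 of the 10 rows with the most counts, these 2 included, and 16.3% of detected protein-coding genes. The counts of Lars2 were 0.384, 0.354 and 0.386 times those of that row. The 35 rows annotated as ribosomal RNA held no counts in any library, which allows up to 3 counts a row. The row with the most counts is not among them, and what RNA it counts was not determined. The empty rows therefore do not show that the libraries lacked ribosomal RNA reads. The shared stretch was not compared with a ribosomal RNA sequence. How many Lars2 counts came from the shared bases, and whether they came from Lars2 transcripts, was not tested. The mitochondrial values are therefore given with and without Lars2.

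Other members were searched in the same way, with no such search made over all genes. A match of at least 90% over at least 50 bases, outside genes that overlap the member, was found for 9 members in all, 3 cytosolic and 6 mitochondrial, and for none of the other 27. Iars matched Gm4849 and Kars matched Gm8428, while Tars matched 210 genes, Wars2 70 and Tars2 15. What kind of sequence these matches share was not examined, so they are not counted as related genes. Exons of another annotated gene overlapped those of 6 cytosolic and 7 mitochondrial genes, 13 of 36 beside 37.9% of detected protein-coding genes. They included Aars with Exosc6, Mars1 with Ddit3, Farsb with Sgpp2, Cars2 with Naxd and Hars with Hars2. The strand setting of the counting is not given in the sources used here, so the split of reads within such overlaps is uncertain. Leaving out the 13, the medians were 104 CPM per kb for cytosolic and 7.64 CPM per kb for mitochondrial genes.

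Some synthetase genes start back to back with another gene. A coding gene on the other strand began within 1000 bases of the start of 4 cytosolic and 5 mitochondrial members, 9 of 36, beside 17.7% of detected protein-coding genes. These distances are between GENCODE starts and do not show whether the 2 genes cross. Hars and Hars2, the cytosolic and mitochondrial histidyl enzymes, start 197 bases apart by GENCODE, and their exons overlap. By RefSeq, Hars on the minus strand starts at 36783205 and Hars2 on the plus strand at 36783202. Hars and Hars2 were at 194 ± 8.68 and 51.6 ± 4.86 CPM. Rars2 starts 13 bases from Orc3, a subunit of the origin recognition complex, which was at 128 ± 5.29 CPM, close to the 104 ± 4.59 CPM of Rars2. Yars starts 33 bases from S100pbp, and here the levels differed widely, at 264 ± 19.1 CPM for Yars and 7.09 ± 1.39 CPM for S100pbp. Kars, 75 bases from Terf2ip, was at 880.3 ± 44.5 CPM and Terf2ip at 42.1 ± 2.92 CPM. Sars2 lies 172 bases from Mrps12, a protein of the mitochondrial ribosome, and the values were 14.5 ± 0.514 CPM for Sars2 and 50.4 ± 2.51 CPM for Mrps12.

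Promoter sequence was read for 27 of the 36 genes, 13 cytosolic and 14 mitochondrial, from 250 bases before to 50 bases after the start listed by RefSeq (GRCm38.p6). The motif TGATGNAA, known as the C/EBP-ATF response element that ATF4 binds, was searched on both strands. It was present in a window of 5 of 13 cytosolic genes (Aars, Gars, Iars, Tars and Yars), 0 of 14 mitochondrial genes and 4 of 12 amino acid response genes, beside 4.51% of all 27025 genes with a window. Aars2 had 2 windows and the other members 1 each. The stretch around the motif is shown for the 5 genes, with the motif in capitals, on the strand of the gene. These show how the letters differ among the genes that hold it. Yars reads it forward and the other 4 as its reverse complement. The Aars and Yars windows belong to listed starts inside the genes' spans, which begin at 111027778 for Aars and 129189734 for Yars. The Aars window holds a second match, not shown, at base 10 of the transcript.
Yars, chr4:129189886-129189932, plus strand: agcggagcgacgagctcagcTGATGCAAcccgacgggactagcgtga
Gars, chr6:55037951-55037998, plus strand: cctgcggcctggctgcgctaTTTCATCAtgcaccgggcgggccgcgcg
Aars, chr8:111033710-111033757, plus strand: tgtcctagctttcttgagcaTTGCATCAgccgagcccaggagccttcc
Iars, chr13:49682117-49682159, plus strand: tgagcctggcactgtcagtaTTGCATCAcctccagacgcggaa
Tars, chr15:11399646-11399693, minus strand: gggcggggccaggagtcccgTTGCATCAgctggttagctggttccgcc

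In Aars, Iars and Tars the capitals spell the same 8 letters, and Gars differs from them within the motif. The E-box CACGTG was in windows of 4 of 13 cytosolic genes (Aars, Farsb, Iars and Tars), 1 of 14 mitochondrial genes (Ears2) and 8.09% of all genes, so Aars, Iars and Tars held both motifs. CCAAT, which binds NF-Y, was in windows of 7 of 13 cytosolic and 6 of 14 mitochondrial genes, beside 41.1% of all genes. CCGGAAGT, an ETS motif, was in Farsa, Mars1 and Rars2 and in 4.31% of all genes. The cyclic AMP response element TGACGTCA and the NRF1 motif were in no member's window, beside 2.03% and 1.07% of all genes. In the members' windows no matches of different motifs overlapped. The 5 genes with the response element ranged from 42.2 ± 4.32 CPM per kb for Iars to 421 ± 10.4 for Gars, most of the cytosolic range.

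Genes that work with the synthetases were set beside them. All 13 amino acid response genes were detected, with a median of 135.9 CPM per kb. They were led by asparagine synthetase Asns at 527 ± 15.4, the serine synthesis enzyme Psat1 at 408 ± 7.42 and Atf4 itself at 395 ± 16.9 CPM per kb, while Sesn2 was at 8.47 ± 1.33 CPM per kb. With media libraries not analysed here, these levels cannot be read as a response. The elongation factor Eef1a1, which brings charged tRNA to the cytosolic ribosome, was at 2275 ± 154 CPM per kb. Its mitochondrial counterpart Tufm was at 10.3 ± 0.353 CPM per kb, and the exchange factor of Tufm, Tsfm, at 39.2 ± 1.38 CPM per kb. Reads of Eef1a1 may be shared with processed pseudogenes, so its value is uncertain.

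Mitochondria charge the glutamine tRNA indirectly, by an amidotransferase made of Qrsl1, Gatb and Gatc acting after Ears2. These were at 5.98 ± 0.104, 6.05 ± 0.249 and 24.0 ± 0.440 CPM per kb, and Ears2 at 4.12 ± 0.605 CPM per kb. Aarsd1 at 24.3 ± 0.385 and Dtd1 at 34.8 ± 1.39 CPM per kb encode enzymes that remove wrongly held amino acids. Both were detected in every library, as was Ptrh2, listed with them, at 39.3 ± 1.93 CPM per kb.

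Levels of cytosolic enzymes were then set beside the use of their amino acids. Codon shares were counted over 20567 coding sequences, weighted by transcript level, with the mean of Farsa and Farsb as 1 enzyme and Eprs taken for glutamate plus proline. Across the 19 enzymes, which share the same libraries, Spearman's rho between CPM per kb and codon share was 0.156 and Pearson's r of the log2 level was 0.175. Over longest transcripts rho was 0.363. Nars stood highest per codon, at 79.9 CPM per kb for each percent of codons, with 3.61% of codons read. Gars followed at 63.5 with 6.62% of codons, and Wars at 54.3 with 1.09% of codons, the rarest amino acid of the set being tryptophan. Lars, for the most used single amino acid at 9.48% of codons, was at 13.4 CPM per kb for each percent, Aars at 7.92, Vars at 6.12 and Eprs, with 12.9% of codons, at 2.44.

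**Figure D4:**
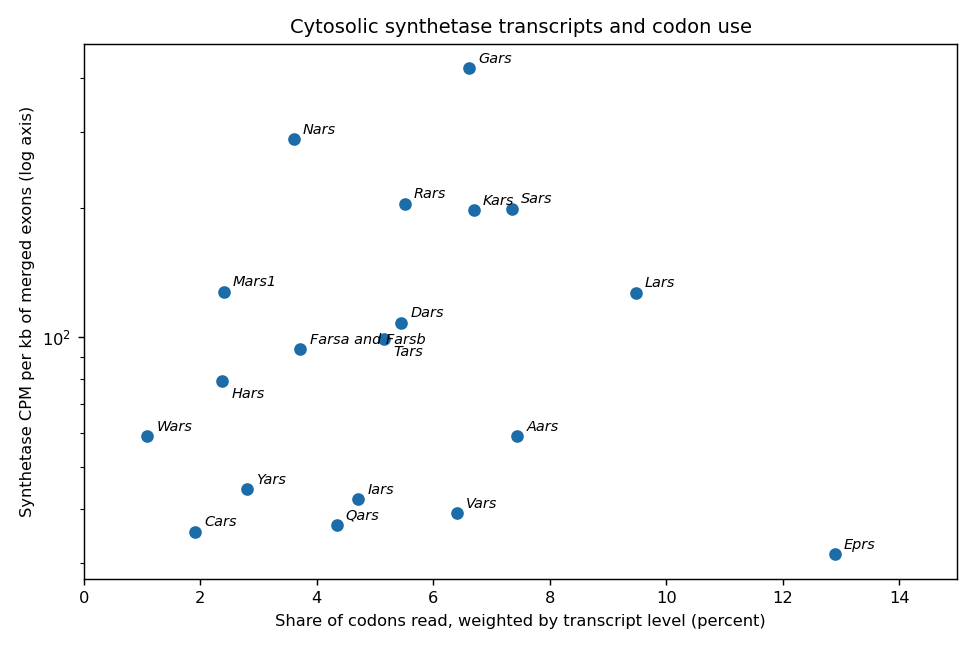
CPM per kb of merged exons (log axis, mean of 3 IL-1 libraries) of each of 19 cytosolic enzymes against the percent of codons it serves, weighted by transcript level. The points show no clear slope (rho 0.156), with Gars and Nars at the top and Eprs at the lower right.

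Between libraries, the cytosolic genes varied little. Their median coefficient of variation was 3.98%, against 8.25% for mitochondrial genes and 8.33% for detected protein-coding genes. Abundance moves with this measure, and 1210 other protein-coding genes in the same range of 159 to 1312 CPM had a median of 5.12%. For mitochondrial genes without Lars2 it was 9.34%, and for 6370 other genes between 9.40 and 104 CPM it was 8.12%. Coefficients under 5% were found for 12 cytosolic and 5 mitochondrial genes, and over 10% for 4 cytosolic genes (Vars, Farsa, Aars and Iars) and 6 mitochondrial genes (Aars2, Pars2, Cars2, Ears2, Vars2 and Yars2). Of detected protein-coding genes 25.6% were under 5% and 40.4% over 10%. Among the genes in the same range as the cytosolic members these shares were 48.9% and 13.6%. In the range of the mitochondrial members without Lars2 they were 25.1% and 37.0%. Lars2, at 4.24%, was among the 5 mitochondrial genes under 5%. The largest spreads were those of Aars2, 28.1%, from 202, 118 and 185 counts, and Pars2, 23.9%, from 246, 162 and 199 counts.

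The highest CPM fell in replicate 1 for 15 of 20 cytosolic genes and 8 of 16 mitochondrial genes, and for 46.1% of detected protein-coding genes. It fell in replicate 2 for 4 cytosolic and 3 mitochondrial genes (26.7% of detected genes) and in replicate 3 for 1 and 5 (27.3%). The lowest CPM fell in replicate 2 for 14 cytosolic and 8 mitochondrial genes, and for 42.6% of detected protein-coding genes. It fell in replicate 1 for 1 cytosolic and 6 mitochondrial genes (29.8% of detected genes) and in replicate 3 for 5 and 2 (27.6%). In bulk RNA, fewer cells of a type and less RNA per cell cannot be told apart. The count for cytosolic genes depended on scaling. With TMM factors, which correct for a few abundant rows taking more of a library, 10 of 20 were highest in replicate 1, beside 37.9% of detected genes, and 13 of 20 were lowest in replicate 2, beside 35.6%. Median log2 ratios of replicate 1 to the mean of the others, in CPM, were 0.08 for cytosolic genes, 0.06 for mitochondrial genes and 0.04 for detected protein-coding genes. For the 1210 genes in the same CPM range as the cytosolic members the median was -0.00, with 39.9% highest in replicate 1. For the 6370 genes in the range of the mitochondrial members without Lars2 it was 0.06, with 49.2%. The median of the mitochondrial members without Lars2 was 0.09, and Lars2 was not among the 8 highest in replicate 1.

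A few genes stood out from this small shift. Vars, with 246, 188 and 225 CPM, had a log2 ratio of replicate 1 to the others of 0.25, Aars, with 609, 496 and 537 CPM, one of 0.24, Farsa, with 177, 158 and 143 CPM, one of 0.23, and Iars, with 245, 199 and 223 CPM, one of 0.21. Replicate 2 was the low library for Vars, Aars and Iars, and replicate 3 for Farsa. Among mitochondrial genes, Pars2, with 14.3, 8.95 and 10.7 CPM, was at 0.51, Aars2 at 0.48 and Cars2, with 36.6, 29.0 and 27.5 CPM, at 0.37. Yars2 went the other way at -0.27, as did Fars2 at -0.17, Nars2 at -0.16 and Lars2 at -0.09. The libraries are replicates of 1 condition, and no test was made between them.

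**Figure D5:**
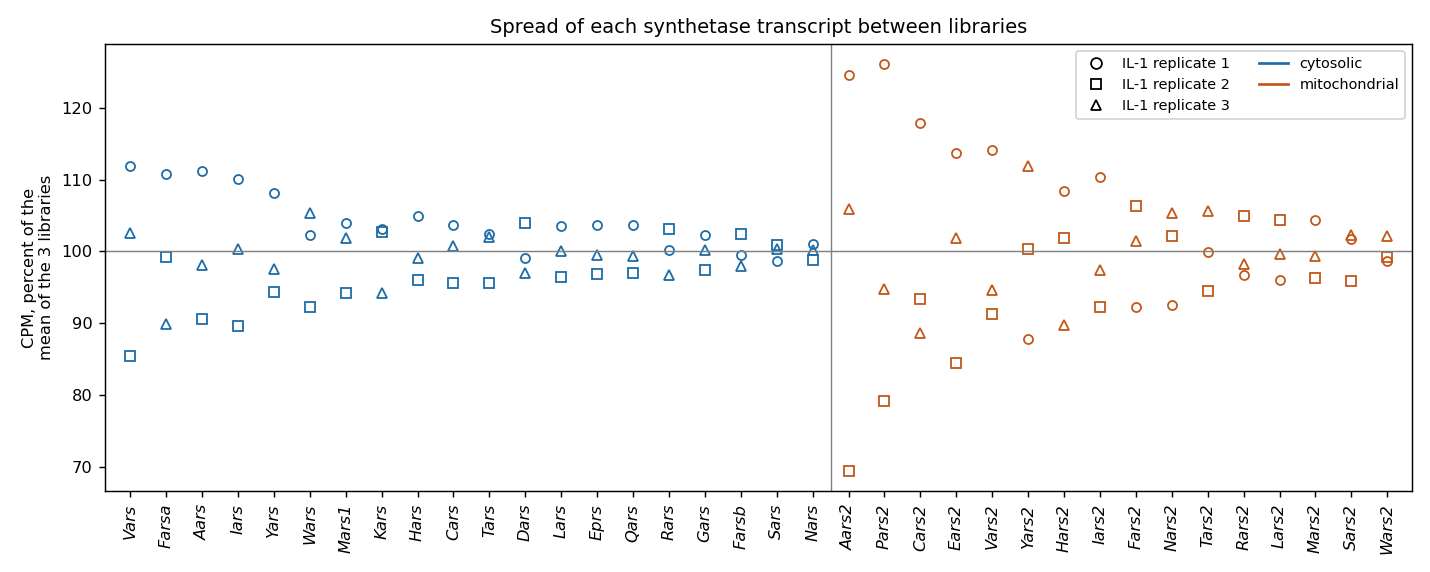
CPM of each synthetase gene in each IL-1 library as a percent of its own mean over the 3 libraries, with cytosolic genes to the left of mitochondrial genes and each class ordered by coefficient of variation; points are libraries. Points of Vars spread by 13.4% and those of Nars by 1.16%, and among mitochondrial genes those of Aars2 spread by 28.1% and those of Wars2 by 1.87%.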

How the data were processed

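Raw counts per Entrez gene ID were used as deposited by the authors, with no normalization. The reads had passed through CASAVA, STAR and featureCounts on build mm10, per the submitters' processing notes. The sources used here give no versions, annotation, strand setting or treatment of multi-mapping reads. Per the labels' protocols, lysates were reverse transcribed without RNA extraction, amplified for 10 cycles and tagmented, with no molecular identifiers named, so limits from counts cover counting error only. Tables were compared byte by byte, and 9 copies of IL-1 replicate 3 were left out. Totals were 17254518 to 18578859 counts; IDs with no symbol took 2.14% ± 0.169 of them (SD, n = 3) and were kept.

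Total counts served as the denominator of CPM. Symbols, gene coordinates and promoters came from RefSeq (GRCm38.p6, 25275 IDs matched). Exon, transcript and coding lengths, exon overlaps and distances between gene starts came from GENCODE M21. Transcripts were compared with blastn 2.17.0 (word size 11, e-value 1e-05). Scaling factors by TMM and by relative log expression were made with edgeR 4.0.16 in R 4.3.3 and ranged from 0.982 to 1.02. A common coefficient of variation, 0.0907 over 11784 genes, was checked on simulated counts, where 0.05, 0.1 and 0.2 were returned as 0.0498, 0.1 and 0.199 over 11708, 11694 and 11669 genes. The log2 ratios of replicate 1 to the others used CPM plus 0.5. Python 3.11.15, numpy 2.4.6, pandas 2.3.3 and scipy 1.17.1 were used.

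All 36 members are named, with values per library for those that lead or end each class, Lars2, the 8 complex enzymes, Wars and others that a result turns on. The scaffold genes and the remaining members are given as mean ± SD. Members and lists were chosen with earlier results of these data known. With 1 group there is no test between conditions. Alternatives were other scalings, lengths and gene sets and each replicate left out.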

Additional observations from a re-analysis of the deposited data

How the results depend on the processing

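Of 85 alternatives over 11 results, 13 of them added after seeing the data, 18 moved a value by more than 1 SD between libraries or, for the codon rho, which has no SD, by more than 0.1. The others include 16 for the counts of detected genes, which stayed at 20 and 16, and 6 ratios that a scaling of whole libraries cannot change. They also include each left-out replicate of a value that is a mean over the 3 libraries, which could not move by 1 SD. The median of cytosolic genes, 89.0 CPM per kb, was 122 with the longest transcript, 104 without members that overlap other genes and 174 with coding length. The mitochondrial median, 6.05 CPM per kb, was 10.1, 7.64 and 26.0 under the same alternatives, 6.20 with totals that leave out Lars2 and the row with the most counts, and 4.45 without Lars2. Their ratio, 14.4, was 12.1, 13.6 and 6.57 under those 3 alternatives, 18.7 without Lars2 and 11.5 in CPM with no length. Lars2 over the median of the other mitochondrial genes, 127, was 184, 99.9 and 111 under the same 3 alternatives. The share of mitochondrial genes without Lars2, 0.0685%, was 0.0703% with the reduced totals, and the codon rho, 0.156, was 0.363 with the longest transcript. The cytosolic median stayed above the mitochondrial one, and Lars2 above the other 15, in each of these. Which parts of each gene model account for the effect of length was not tested.

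No left-out replicate moved a value beyond the spread between libraries. For a value that is a mean over the 3 libraries, leaving out 1 cannot move it by 1 SD. That outcome was fixed in advance for such values and does not show that they are robust. No paired analysis was possible because only 1 group had tables of its own. At these totals the lowest members, Vars2 and Aars2, rest on 118 to 202 counts a library, and counts per gene do not show where reads lay. With 3 libraries of 1 condition, the effect of IL-1 on these genes was not measured.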
